A study of Homo sapiens with 12 samples.

Results

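Alternative 3′ splice sites that lie apart by a distance other than 3 nt were examined in AsPC-1 cells, a human pancreatic ductal adenocarcinoma cell line derived from ascites. The deposited event table listed 12007 alternative 3′ splice site events, in each of which 1 donor is joined to either of 2 acceptors of the next exon. In 10403 of them the 2 alternative exons differed in length by other than 3 nt, and 8109 of these, in 4003 genes, had a mean of at least 20 reads per sample over both junctions. Of these 8109 events, 2730 in 1912 genes had reads on both junctions in every sample, or at 0 only in all samples of a group, and were tested. The other 5379 had a junction at 0 in part of a group and were set apart. There were 12 libraries, 3 replicates (lettered A to C) for each of 4 groups. Cells in 6-well plates were transfected with siRNA, either siARNT, which targets ARNT, or the control siControl, using a lipid reagent, and the next day the cells were split into a culture kept in normoxia and a culture moved to hypoxia (1% O2 for 24 hours). Each siRNA was thus paired with each oxygen level, and all groups were of 1 cell line and transfected. Normoxia and hypoxia cultures with the same siRNA came from the same transfected wells. The replicates were wells of that line, and nothing in the labels names separate cultures beyond the wells, so the p-values below measure the spread between these samples.

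The 3′ splice site is read by U2AF, whose large subunit binds the polypyrimidine tract and whose small subunit contacts the AG at the intron end, before the U2 snRNP settles on the branch point. Where a pair of acceptors is far enough apart, each can carry its own tract and branch point, so that tract-binding proteins, SR proteins and hnRNPs can shift the choice. ARNT, also called HIF-1β, is the partner that HIF-1α and HIF-2α need to bind DNA when oxygen is low. In the text below, "upstream site" is the acceptor nearer the donor, which gives the longer exon, and its use is the percentage of junction reads of both sites that lead to it.

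The sequences of acceptors whose use differed between groups are shown first, since the results turn on them. They come from GENCODE 29 transcripts on GRCh38, in which an intron pair of the same gene with a shared donor and the same 2 intron lengths was found for the event. Each window holds the last 24 bases of the intron and the first 6 of the exon, and capitals mark the AG at the intron end. For RPL22L1 and DMTF1 the whole stretch between the sites is given, ending in the AG of the downstream site. The positions are RPL22L1 chr3:170868135-170868201, SRSF2 upstream chr17:76735870-76735899 and downstream chr17:76735153-76735182, and RSRP1 upstream chr1:25244493-25244522 and downstream chr1:25243628-25243657. For WSB1 they are chr17:27307720-27307749 and chr17:27309076-27309105, for SAT1 chrX:23784270-23784299 and chrX:23785304-23785333, for CENPV chr17:16348680-16348709, for MORF4L2 chrX:103678595-103678624 and for DMTF1 chr7:87182017-87182055. RPL22L1, SRSF2, RSRP1, CENPV and MORF4L2 lie on the minus strand and the other genes on the plus strand.
RPL22L1 stretch between the sites: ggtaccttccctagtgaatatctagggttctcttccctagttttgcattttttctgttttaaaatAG
SRSF2 upstream site: cgtctgcattttccccctttaaAGctgcgg
SRSF2 downstream site: gaacttctttcttttcaaacctAGatgtat
RSRP1 upstream site: atctgctctatttctgtcttatAGaaatca
RSRP1 downstream site: tacactttttcttaacctgtctAGctgtcg
WSB1 upstream site: tgcttcttgctttccctgtcacAGgtggtg
WSB1 downstream site: ataacatttgcctttttattgcAGgttttc
SAT1 upstream site: tctttaatttgtcccaatcttcAGgttaca
SAT1 downstream site: tctcatgtgatgctcttattacAGgacaca
CENPV downstream site: ggaatttgctctgtctttctgtAGttgcag
MORF4L2 downstream site: gcagatacctgcctttctttctAGgttgta
DMTF1 stretch between the sites: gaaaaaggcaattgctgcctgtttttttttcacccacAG

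ARNT itself checked the labels. Its level was 60.4, 62.8 and 62.9 CPM (read counts scaled to a common library size) in normoxia siControl and 13.5, 12.9 and 13.9 CPM in normoxia siARNT. In hypoxia it was 71.6, 63.9 and 72.3 CPM with siControl and 16, 15.9 and 14 CPM with siARNT. It fell with siARNT by 2.22 ± 0.07 (SE) on the log2 scale in normoxia and by 2.17 ± 0.07 in hypoxia (edgeR adjusted p = 8.99e-09 and 2.65e-09). Of 8 epithelial markers, KRT8, KRT18, EPCAM and CEACAM6 were at 785 CPM or more in every library, KRT19 at 248 to 1030, CDH1 at 153 to 247 and MUC1 at 13.4 to 43.4. CEACAM5 stood at 64.5 to 80.2 CPM with siControl and 24.1 to 29.5 with siARNT, while all fibroblast, leukocyte and endothelial markers found in the table were at or below 1.03 CPM, with CD3E at 0 throughout. Gene counts summed to between 38525512 and 84337166 reads per library. Over all 8109 distant events, those set apart included, both junctions together had a median of 111 to 238 reads per library.

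Most of the distant pairs had a main site and a minor site. The distance between the acceptors had a median of 50 nt, with quartiles of 18 and 136 nt and a range of 1 to 7972 nt. The upstream site took the majority of reads in 1993 of 2730 events (73.0%). It took over 80% in 1587 events and under 20% in 484, and both sites had over 20% in 659. Among sites 4 to 12 nt apart 14.8% of events had both sites above 20%, against 31.0% of those over 1000 nt apart. A distance that is a multiple of 3, which keeps the reading frame, was found in 1130 events (41.4%). In 1907 events (69.9%) both introns were annotated in GENCODE 29. For 1859 of them the stretch between the sites could be read, and it ended in AG in 1854 (99.7%). The base before the AG was C in 67.7%, T in 19.1%, A in 11.0% and G in 1.9% of 1848 stretches of 4 nt or more. The stretch lay wholly in coding sequence in 1143 events, and there 47.7% of distances were multiples of 3, against 33.2% of the other annotated events.

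**Figure D1:**
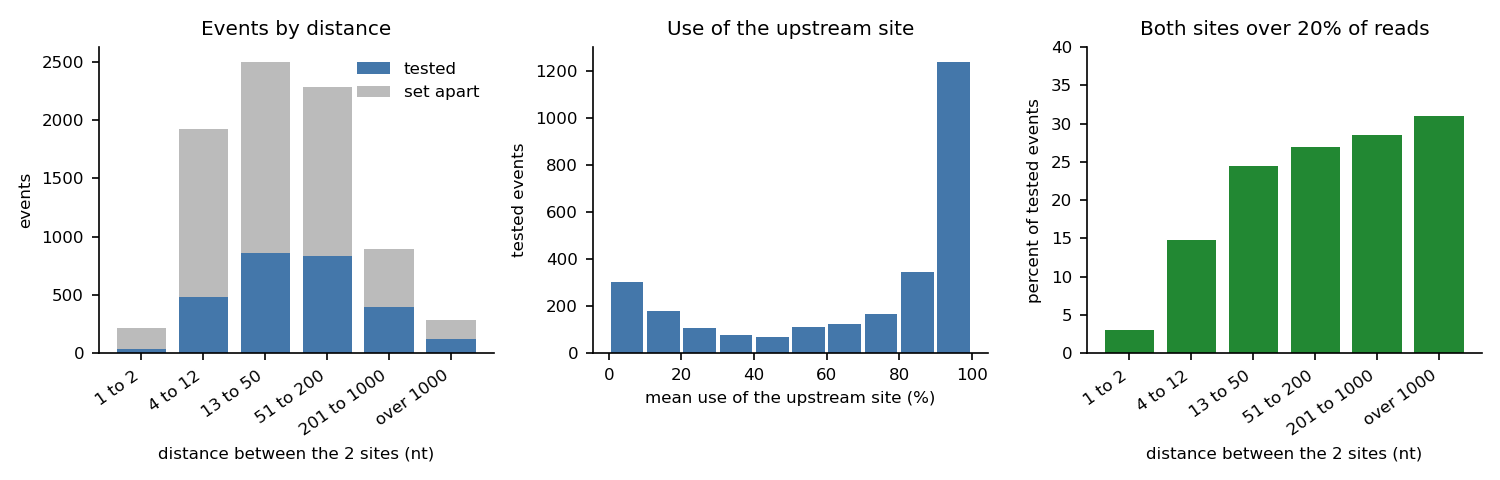
Distant alternative 3′ splice sites by distance and use. Left, events by the distance between the 2 sites in nt, tested (blue) or set apart (grey); middle, tested events by their mean use of the upstream site in percent over 12 libraries; right, the percentage of tested events in which both sites had over 20% of reads. The middle panel is highest at the right end, and the right panel rises from 3.0% at 1 to 2 nt to 31.0% over 1000 nt.

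The events set apart were mostly pairs with a rare minor site. Their minor site had a median share of 1.69% of the reads, and it was under 5% in 4271 of 5379 events (79.4%). In 1168 (21.7%), however, a library at 0 stood beside a library of the same group with 20 or more reads on the same junction. The 5 events with the most reads all belonged to EEF1A1, which encodes the elongation factor that brings aminoacyl-tRNA to the ribosome, and they share the junction of the upstream site. At 21 nt, the downstream junction of EEF1A1 had 6187 and 4550 reads in normoxia siControl A and C and 6238 in hypoxia siControl A, and 0 in the other 9 libraries. At 9 nt it had between 1880 and 3861 reads in 11 libraries and 0 in hypoxia siARNT C. At 468 nt it had 1741 reads in normoxia siControl C and 0 in the other 11. The junction of the shared upstream site had 58959 to 159670 reads in the same libraries. Such junctions had many reads in some libraries and 0 in others, also within 1 group. The share of events set apart was 85.0% at 1 to 2 nt and 55.5% over 1000 nt. For comparison, among events with sites 3 nt apart it was 36.6% (464 of 1269).

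Each comparison was tested on the junction counts with edgeR's quasi-likelihood test and Benjamini-Hochberg adjustment over 3535 alternative 3′ events, the 3-nt pairs included. An event counted as called at an adjusted p under 0.05. For hypoxia, 5 distant events were called in siControl cells and 6 in siARNT cells, against a background of 0.141% and 0.226% of all events tested. With siARNT, 40 events were called in normoxia and 25 in hypoxia, against 1.22% and 0.736% of all events tested. The hypoxia change differed between siARNT and siControl in 3 events (0.0849% of all events tested). With siARNT the called events leaned to the downstream site. Use of the upstream site was lower in 29 of 40 in normoxia and in 21 of 25 in hypoxia, beside 0.82% and 0.594% of all events tested that were called in that direction. The 40 and 25 calls lay in 36 and 24 genes, so some share a gene, and 3 and 9 of them held without any single library. Over all members tested, 50.4% and 52.7% had a lower fitted use of the upstream site in these comparisons. The distant events make up 2730 of the 3535 tested, so these shares lie close to their own. Groups that do not overlap were found in 12.5%, 11.5%, 15.6% and 13.3% of all events tested in the first 4 comparisons. The counts of calls rest on leaving the events set apart out of the fit, and that choice was settled after both fits had been seen. With them kept in, 0, 1, 0, 1 and 0 members were called by edgeR in the same order. At an unadjusted p under 0.05, with the events set apart left out, 208, 210, 365, 245 and 179 members passed, beside 6.99%, 6.93%, 11.2%, 7.89% and 5.94% of all events tested. Other tools differed most for siARNT: over the 5 comparisons limma called 3, 6, 2, 13 and 4 events, and DESeq2 called 2, 2, 3, 14 and 3. Of these, 3, 3, 1, 8 and 2 by limma and 2, 2, 3, 13 and 2 by DESeq2 were also called by edgeR. The edgeR calls that held without any single library and by both other tools numbered 2, 2, 0, 4 and 2. Apart from RSRP1 for hypoxia in siARNT and PRPF4B for siARNT in hypoxia, they lay in RPS7, SLC20A1 and SEC61G. Those 3 events had a junction at 0 in a whole group, which leaving out a library cannot remove.

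**Figure D2:**
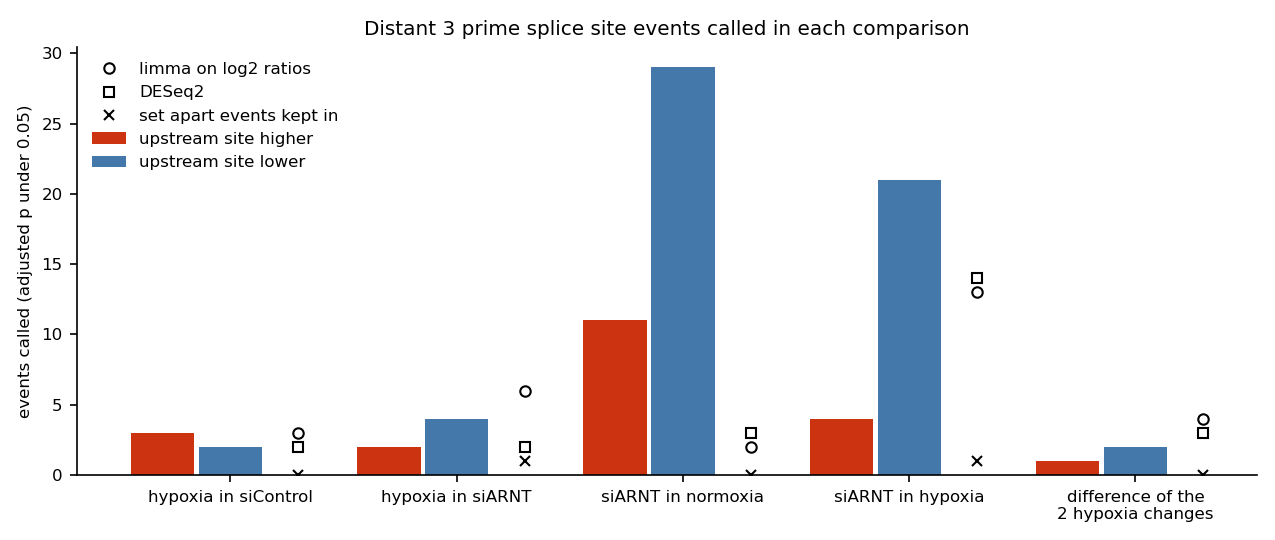
Distant events called in each comparison at an adjusted p under 0.05. Bars give the number with higher (red) and lower (blue) use of the upstream site; open circles, squares and crosses give the totals by limma, by DESeq2 and with the events set apart kept in. siARNT in normoxia has the tallest bars, 29 lower and 11 higher, but only 2 and 3 calls by limma and DESeq2.

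In siControl cells, hypoxia raised the upstream site of RPL22L1 and of SRSF2. RPL22L1 encodes a paralogue of the ribosomal protein eL22. Its upstream site, 67 nt before the other, was used in 47.8%, 39.8% and 46.9% of reads in normoxia siControl and in 60.3%, 56.7% and 64.5% in hypoxia siControl. With siARNT it was used in 44.2%, 39.5% and 40.3% in normoxia and in 51%, 45.7% and 56.5% in hypoxia. All hypoxia siControl libraries stood above all normoxia ones, but naming by size required that the siControl groups not overlap. The siControl groups differed by 15.7 percentage points (log2 ratio 0.91 ± 0.18 SE, edgeR adjusted p = 0.0126). In GENCODE 29 the intron to the upstream site occurs only in a transcript of the nonsense-mediated decay (NMD) class, and 67 is no multiple of 3. The host gene's level did not pass the test (log2 change -0.18 ± 0.10, edgeR adjusted p = 0.203). The RPL22L1 call was lost without normoxia siControl B, hypoxia siControl A or hypoxia siControl C (edgeR adjusted p = 0.145, 0.0784 and 0.268). It was not made by limma or DESeq2 (adjusted p = 0.396 and 0.582).

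SRSF2 encodes an SR protein whose own 3′ untranslated region is alternatively spliced, with forms that enter NMD. The upstream of its 2 sites, 717 nt apart in that region, took 3.22%, 3.25% and 3.29% of reads in normoxia siControl and 6.05%, 7.20% and 6.72% in hypoxia siControl. With siARNT it took 2.63%, 2.95% and 2.61% in normoxia and 3.57%, 3.2% and 2.66% in hypoxia. The 3 hypoxia siControl libraries thus stood apart from the other 9. The rise with hypoxia in siControl was 3.40 points (log2 ratio 1.08 ± 0.20 SE, edgeR adjusted p = 0.00674), and use was 3.51 points lower with siARNT than with siControl in hypoxia (log2 ratio -1.13 ± 0.21, edgeR adjusted p = 0.00204). In hypoxia siControl the upstream junction had 57, 55 and 44 reads, so each percentage rests on few reads. The rise was lost without hypoxia siControl B (edgeR adjusted p = 0.0682) and was not called by limma or DESeq2 (adjusted p = 0.159 and 0.144). The difference with siARNT in hypoxia held without any single library and was called by DESeq2 (adjusted p = 0.0322) but not by limma (adjusted p = 0.0597). The difference between the 2 hypoxia changes was not called for SRSF2.

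The other 3 events called for hypoxia in siControl, in RPS7, SLC20A1 and DSG2, each had a junction at 0 in a whole group. RPS7 encodes a small-subunit ribosomal protein. The downstream junction of its 19-nt pair had 409, 256 and 273 reads in hypoxia siControl and 0 in all other 9 libraries, while the upstream junction had 29 to 82 reads in every library. SLC20A1, a sodium-phosphate cotransporter, showed the reverse at 47 nt: its downstream junction had 0 reads in hypoxia siControl and 51, 37 and 61 in normoxia siControl. With siARNT it had 52, 22 and 17 in normoxia and 34, 26 and 12 in hypoxia. DSG2, a desmosomal cadherin, had 0 reads on the downstream junction of a 4-nt pair in normoxia siControl and 3 to 11 in the other libraries, beside 760 to 1791 reads upstream. The DSG2 call (edgeR adjusted p = 0.0254) was lost without any of the 3 normoxia siControl libraries or hypoxia siControl C (highest edgeR adjusted p = 0.268). No fold change is given for these events, since a fit against 0 reads depends on its prior.

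Under siARNT, 6 events were called for hypoxia. RSRP1, whose product is an arginine- and serine-rich protein, moved most among those with reads on both junctions. Its upstream site, 865 nt before the other, took 65.3%, 68.5% and 63.8% of reads in normoxia siControl and 53.9%, 50% and 46.8% in normoxia siARNT. After hypoxia it took 45.5%, 45.0% and 35.1% with siControl, and 16.2%, 18.6% and 19.2% with siARNT. The 4 groups stood in that order and did not overlap, which naming by size required for hypoxia in siARNT and for siARNT in hypoxia. The fall with hypoxia in siARNT was 32.2 points (log2 ratio -2.24 ± 0.36 SE, edgeR adjusted p = 0.000358), called also by limma and DESeq2 (adjusted p = 0.00171 and 0.00245) and without any single library. With siARNT in hypoxia it was 23.8 points lower than with siControl (log2 ratio -1.73 ± 0.36, edgeR adjusted p = 0.00901), a call lost without hypoxia siControl A or hypoxia siARNT A (edgeR adjusted p = 0.106 and 0.0723). Hypoxia in siControl and siARNT in normoxia were not called for RSRP1, although the groups did not overlap. RSRP1 is covered by only 40 to 89 reads per library, and the widest 95% Wilson interval of 1 library spanned 29.6 points, for counting error alone.

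WSB1, a known HIF target that encodes the substrate receptor of a ubiquitin ligase, was the sole gene of the HIF target list with a called event. Its upstream site, 1356 nt before the other, was used in 67.8% ± 1.01 (SD, n = 3) of reads in normoxia and 67.9% ± 0.83 in hypoxia with siControl, and in 75.7% ± 2.05 and 64.5% ± 3.79 with siARNT. Hypoxia left the siControl libraries within 2 points of each other and lowered use under siARNT by 11.2 points (log2 ratio -0.77 ± 0.17 SE, edgeR adjusted p = 0.032). The WSB1 call was lost without any of 5 libraries, normoxia siARNT A, B or C and hypoxia siARNT A or C (highest edgeR adjusted p = 0.347), and by limma and DESeq2 (adjusted p = 0.434 and 0.364). SKP2 encodes the F-box protein that targets p27 for degradation. Its upstream site, 2022 nt before the other, rose by 10.1 points, from 82.3% ± 2.15 in normoxia siARNT to 92.3% ± 2.18 in hypoxia siARNT (log2 ratio 1.41 ± 0.26 SE, edgeR adjusted p = 0.00296). In siControl the same site stood at 87.4% ± 2.31 in normoxia and 92.7% ± 0.90 in hypoxia. The SKP2 call was lost without hypoxia siARNT A (edgeR adjusted p = 0.208) and by limma and DESeq2 (adjusted p = 0.133 and 0.117).

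Without hypoxia siARNT A, 3 events in all were called for hypoxia in siARNT. SEC61G and RIC1 each had a junction at 0 in a whole group. The downstream junction of SEC61G, a subunit of the translocon, had 0 reads in hypoxia siARNT and 34 to 86 elsewhere, at a distance of 4 nt. RIC1 had reads on its downstream junction, 55 nt from the other, in hypoxia siARNT alone, and its call was lost without any 1 of the 6 siARNT libraries (edgeR adjusted p = 0.0765 to 0.359).

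With siARNT in normoxia, 5 of the 6 events named for their large differences had few reads. DLG5, a scaffold protein of cell junctions, fell from 45.5% ± 10.7 (SD, n = 3) to 17.4% ± 4.79 upstream use. RFC2, a subunit of the clamp loader, fell from 42.4% ± 5.24 to 14.9% ± 4.33, and RBM26, an RNA-binding protein, from 36.4% ± 11.1 to 15.3% ± 2.14. In the other direction TNFRSF14, the receptor HVEM, rose from 49.98% ± 16.8 to 76.2% ± 1.05 and PLXND1, a semaphorin receptor, from 69.0% ± 10.3 to 94.2% ± 4.98. These 5 events had means of 31.0 to 66.8 reads per library, and edgeR adjusted p-values of 0.0114, 0.0106, 0.0123, 0.0359 and 0.00908. NPIPA9, of a family of near-identical nuclear pore interacting genes whose reads may be shared between copies, fell from 44.0% ± 4.16 to 21.9% ± 5.29 at 416.2 reads (edgeR adjusted p = 3.71e-05). Without normoxia siControl C the first 5 of these lost their call (edgeR adjusted p = 0.153, 0.0579, 0.162, 0.134 and 0.085), as all 5 did without normoxia siARNT B (edgeR adjusted p = 0.0671, 0.106, 0.0882, 0.1 and 0.171). RFC2 and PLXND1 also lost it without normoxia siControl B (edgeR adjusted p = 0.0744 and 0.0635), and TNFRSF14 without normoxia siControl A or normoxia siARNT A or C (highest edgeR adjusted p = 0.404). Over all members, 3 events were called without normoxia siControl C, 16 without normoxia siControl B, 18 without normoxia siARNT B and 21 without normoxia siControl A, in place of 40. Of the 40 calls, 3 held without any single library: NPIPA9, the 1878-nt pair of HNRNPA2B1 and URI1, the last named after its values were seen. The spread between replicates was widest in pairs with normoxia siARNT B, where the junction counts differed by a chi-square of 1.86 and 2.22 per degree of freedom, against 1.22 to 1.75 in all other replicate pairs.

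With siARNT in hypoxia, use of the upstream site fell in SUPT20H, PRPF4B, RSRP1, MAP4, DMTF1, CENPV, SAT1 and NPIPA9, which with RIC1 and RPS7 were the largest differences. SUPT20H, a subunit of the SAGA coactivator, fell from 74.6% ± 8.39 (SD, n = 3) to 47.2% ± 3.17 at 727 nt. PRPF4B, a kinase of the spliceosome, took 95.3%, 90.4% and 98.1% in hypoxia siControl and 75.4%, 68.8% and 65.4% in hypoxia siARNT at 517 nt. The groups of PRPF4B did not overlap, which was required of events named by size. Its difference (log2 ratio -2.88 ± 0.50 SE, edgeR adjusted p = 0.000901) was called by limma and DESeq2 (adjusted p = 0.0291 and 0.00969) and without any single library. MAP4, a microtubule-associated protein, fell by 23.1 points at 101 nt and DMTF1, a Myb-like transcription factor, by 21.0 points at 39 nt. The MAP4, DMTF1 and SUPT20H calls were less stable (edgeR adjusted p = 0.011, 0.027 and 0.0221). MAP4 lost its call without hypoxia siControl A or C or hypoxia siARNT A or C, SUPT20H without hypoxia siControl B or C or hypoxia siARNT A or B, and DMTF1 without any of the 6 hypoxia libraries (highest edgeR adjusted p = 0.126, 0.135 and 0.176). Among the called events with the most reads was a 16-nt pair of S100A4, a calcium-binding protein, at a mean of 21693 reads, whose upstream site stood at 3.08% ± 0.03 (SD, n = 3) in hypoxia siControl and 2.01% ± 0.13 in hypoxia siARNT (edgeR adjusted p = 0.0309). The S100A4 call was lost without any of 7 libraries, normoxia siControl B, normoxia siARNT C, hypoxia siControl A, B or C and hypoxia siARNT A or B (highest edgeR adjusted p = 0.151). Without hypoxia siControl A or hypoxia siARNT A 12 events were called in place of 25, and without hypoxia siControl C 13. Of the 25 calls, 9 held without any single library.

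CENPV, SAT1 and MORF4L2 were called with siARNT in both oxygen conditions. CENPV encodes a centromere protein, and in GENCODE 29 the intron to its upstream site, 648 nt before the other, occurs only in an NMD transcript. The site took 41.3%, 37.0% and 38.5% of reads in normoxia siControl and 26.6%, 30.7% and 29.4% in normoxia siARNT. In hypoxia it took 49.5%, 50.1% and 45.8% with siControl and 33.0%, 29.95% and 36.8% with siARNT. Every siARNT library lay below every siControl library of either oxygen level. The difference was -10.1 points in normoxia (log2 ratio -0.67 ± 0.16 SE, edgeR adjusted p = 0.0306) and -15.2 points in hypoxia (log2 ratio -0.92 ± 0.17, edgeR adjusted p = 0.00204). In normoxia it was lost without any of 5 libraries, normoxia siControl A, B or C and normoxia siARNT A or C (edgeR adjusted p = 0.0534 to 0.19), and in hypoxia it held without any single library. CENPV was not called by limma in normoxia or hypoxia (adjusted p = 0.345 and 0.168), and by DESeq2 only in hypoxia (adjusted p = 0.182 in normoxia and 0.0228 in hypoxia).

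SAT1 encodes the spermidine/spermine acetyltransferase that starts polyamine breakdown. Its upstream site, 1034 nt before the other and annotated only in a transcript without an open reading frame, took 27.0%, 34.8% and 28.7% in normoxia siControl and 12.8%, 17.9% and 18.8% in normoxia siARNT. In hypoxia it took 25.2%, 30.7% and 31.0% with siControl and 14.9%, 10.3% and 17.4% with siARNT. The siARNT libraries again lay below all siControl ones, by 13.7 points in normoxia and 14.7 in hypoxia (edgeR adjusted p = 0.00664 and 0.011). For SAT1 too, naming by size required no overlap in hypoxia. The level of SAT1 rose with siARNT by 0.36 ± 0.08 and 0.40 ± 0.08 on the log2 scale (edgeR adjusted p = 0.00912 and 0.00246). The SAT1 splicing call was lost without normoxia siControl B, normoxia siControl C or normoxia siARNT A in normoxia (edgeR adjusted p = 0.0674, 0.0558 and 0.0712). In hypoxia it was lost without hypoxia siControl B, hypoxia siControl C, hypoxia siARNT A or hypoxia siARNT B (edgeR adjusted p = 0.0702, 0.0903, 0.0523 and 0.103). Neither limma nor DESeq2 called SAT1 in normoxia (adjusted p = 0.198 and 0.0937) or in hypoxia (adjusted p = 0.13 and 0.0833).

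MORF4L2, a subunit of the NuA4 acetyltransferase complex, has a pair of acceptors 51 nt apart in its 5′ untranslated region. The upstream of them took 17.3%, 17.2% and 18.3% in normoxia siControl and 10.0%, 9.16% and 11.4% in normoxia siARNT. In hypoxia it took 18.1%, 18.0% and 20.2% with siControl, and 10.8%, 10.1% and 7.54% with siARNT. The 6 siARNT libraries were all below the 6 siControl libraries, at 821 to 2681 reads each. The difference was -7.41 points in normoxia and -9.32 in hypoxia (log2 ratios -0.92 ± 0.17 and -1.14 ± 0.17 SE, edgeR adjusted p = 0.00465 and 9.84e-05). DESeq2 called both (adjusted p = 0.0323 and 0.000652) and limma neither (adjusted p = 0.184 and 0.0726). Leaving out normoxia siControl C ended the call in normoxia (edgeR adjusted p = 0.0519).

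With siARNT, 1.22% of all events tested were called in normoxia and 0.736% in hypoxia. Use of the upstream site was lower in 29 of the 40 and 21 of the 25 distant events called. Events called in both would thus tend to be lower in both. Of the 9 events called with siARNT in both oxygen conditions, all had lower use of the upstream site in both. Beside the 3 genes above they lay in HNRNPA2B1, NPIPA9, MAP4, BUB3 and CYP3A5, the last with 2 events; BUB3 and CYP3A5 are named here after their values were seen. BUB3, a spindle checkpoint protein, stood at 76.6% ± 1.18 (SD, n = 3) and 64.7% ± 1.23 in normoxia and at 73.5% ± 4.52 and 62.7% ± 3.13 in hypoxia, siControl before siARNT. The 368-nt pair of CYP3A5, a drug-metabolising cytochrome P450, stood at 19.6% ± 0.83 and 12.1% ± 2.20 in normoxia and at 23.6% ± 3.12 and 13.4% ± 0.59 in hypoxia. The 2 siARNT comparisons share no library, but the normoxia and hypoxia cultures of a group were divided from the same transfected wells. BUB3 lost its call without normoxia siControl C in normoxia (edgeR adjusted p = 0.0558) and without hypoxia siControl C, hypoxia siARNT A or hypoxia siARNT C in hypoxia (highest edgeR adjusted p = 0.295). The 368-nt pair of CYP3A5 lost it in normoxia without normoxia siControl C (edgeR adjusted p = 0.0579). The 236-nt pair of CYP3A5 lost it in normoxia without normoxia siControl A or C or normoxia siARNT A or B (highest edgeR adjusted p = 0.0891), and NPIPA9 in hypoxia without hypoxia siControl A or C or hypoxia siARNT C (highest edgeR adjusted p = 0.17). MAP4, at an edgeR adjusted p of 0.0497 in normoxia, lost it there without 9 of the 12 libraries, all but normoxia siARNT A, hypoxia siControl B and hypoxia siARNT C (highest edgeR adjusted p = 0.39). Of the 40 events called in normoxia, 36 had the same direction in hypoxia, with a median difference of 7.80 points in normoxia and 3.66 in hypoxia. Of the 25 called in hypoxia, 21 had the same direction in normoxia (84.0%), with medians of 11.0 and 7.41 points. Over all members tested, 56.7% had the same direction in both.

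**Figure D3:**
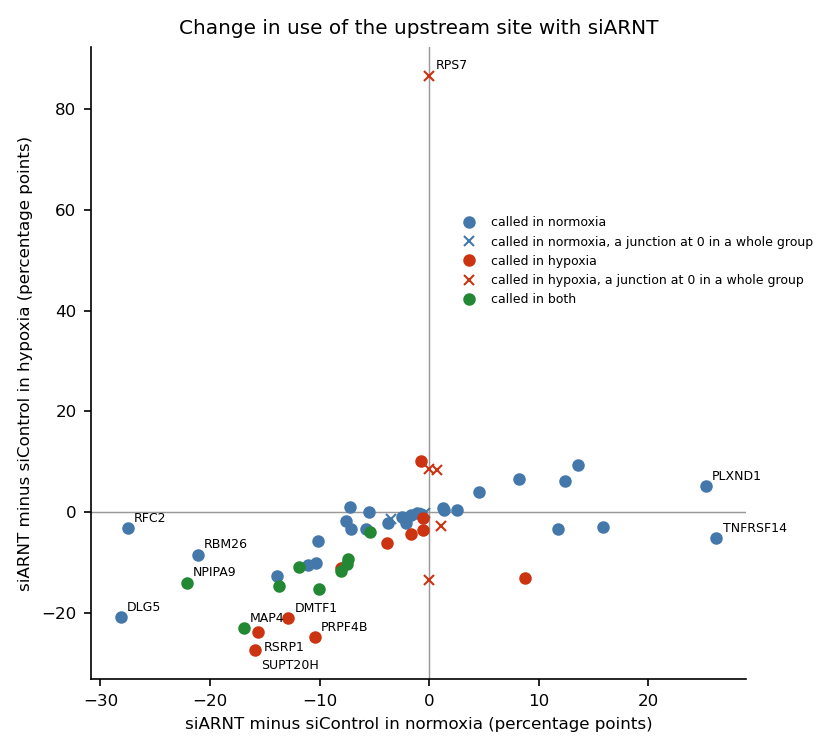
Difference in use of the upstream site between siARNT and siControl, in percentage points, in normoxia (horizontal axis) and hypoxia (vertical axis), for the events called in either. Colours give where an event was called, and crosses mark events with a junction at 0 in a whole group. The events called in both (green) all lie in the lower left part, and RPS7 stands alone at the top with no difference in normoxia.

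**Figure D4:**
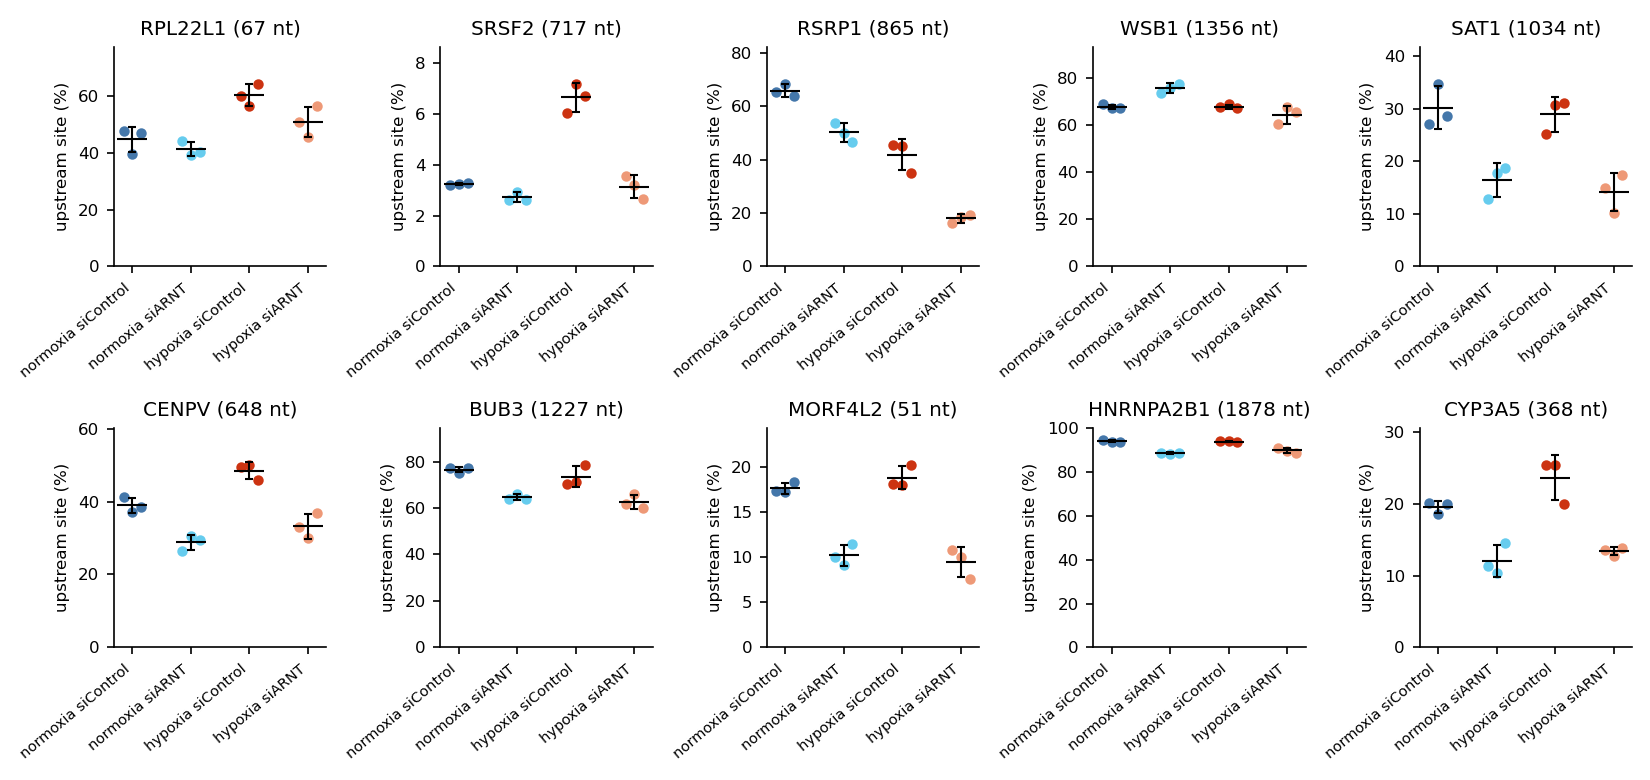
Use of the upstream site in percent of junction reads, per library (points), with the group mean and SD (black), for 10 called events and the distance of their sites in nt. Each vertical axis starts at 0 and has its own range. In SAT1, MORF4L2, HNRNPA2B1 and CENPV every siARNT library lies below every siControl library. For SAT1 and CENPV, naming by size required no overlap in hypoxia.

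Factors that read the 3′ splice site or regulate its choice, kinases of SR proteins included, were themselves hosts of such events. Of a list of 60 genes, 36 had a distant event with at least 20 reads, and 20 had at least 1 that was tested, 42 events in all. Among these 42, 1 was called for hypoxia in siControl, 0 for hypoxia in siARNT, 4 for siARNT in normoxia and 2 for siARNT in hypoxia, beside 0.141%, 0.226%, 1.22% and 0.736% of all events tested. The calls lay in HNRNPA2B1, SRSF1 and SRSF2, all of the class of tract and exon binding regulators, and 3 of the 4 in normoxia share 1 junction of HNRNPA2B1. The classes of branch point and tract recognition, U2 snRNP and second step of splicing had 6, 1 and 1 tested events, and 0 were called. The median absolute difference of the 42 events was 1.28 points with siARNT in normoxia and 1.63 in hypoxia, beside 1.36 and 1.41 points over all members tested. HNRNPA2B1 encodes an abundant hnRNP. Its 1878-nt pair stood at 94.6%, 93.6% and 93.7% in normoxia siControl and 88.8%, 88.3% and 88.7% in normoxia siARNT. In hypoxia the values were 93.9%, 93.9% and 93.7% with siControl and 90.9%, 89.7% and 88.8% with siARNT. Each siARNT library lay below each siControl library, at 1828 to 4519 reads. The difference was -5.37 points in normoxia (log2 ratio -1.01 ± 0.16 SE, edgeR adjusted p = 0.000403), called by DESeq2 (adjusted p = 0.000152) and not by limma (adjusted p = 0.102). In hypoxia it was -4.04 points (log2 ratio -0.78 ± 0.16, edgeR adjusted p = 0.00905), a call lost without hypoxia siControl A (edgeR adjusted p = 0.0789). The level of HNRNPA2B1 fell with siARNT by 0.35 ± 0.06 on the log2 scale in normoxia and 0.24 ± 0.06 in hypoxia (edgeR adjusted p = 0.00239 and 0.0118). SRSF1, an SR protein, rose from 97.6% ± 0.57 (SD, n = 3) to 99.0% ± 0.31 with siARNT in normoxia at 559 nt (edgeR adjusted p = 0.00664), lost without normoxia siControl A or C (edgeR adjusted p = 0.0794 and 0.0579).

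The levels of the 60 factor genes moved in both directions. With hypoxia in siControl 5 rose and 12 fell, against 25.3% of all genes tested that were called in either direction. Among those that rose were the kinases of SR proteins CLK1 (log2 change 0.76 ± 0.08, edgeR adjusted p = 5.83e-05) and CLK3 (0.75 ± 0.16, edgeR adjusted p = 0.00392). CLK4, of the same kinase family, rose by 0.60 ± 0.10 (edgeR adjusted p = 0.000804). With siARNT in hypoxia 11 rose and 9 fell, against 29.1% of all genes tested. There ESRP1, an epithelial splicing regulator, fell by 0.91 ± 0.10 (edgeR adjusted p = 4.5e-05). Of 15 U2 snRNP genes, 5 fell with hypoxia in siControl and 0 rose, beside the 25.3% of all genes named above. With siARNT in hypoxia 4 of the 15 rose and 0 fell, beside the 29.1% of all genes named above. SF3A3 and SF3B4 were called in both comparisons, while PHF5A, SNRPA1 and SNRPB2 fell with hypoxia and were not called with siARNT in hypoxia. With siARNT in normoxia 2 rose and 2 fell. Whether these levels bear on the choice of acceptors was not tested. Of 47 HIF target genes, 16 had a distant event with 20 reads and 5 a tested one, 8 events in all, of which the WSB1 event was the only one called.

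The coverage of the stretch between the sites gives another readout of the same libraries that the test on junctions did not use. It is given as a ratio to the coverage of the exon part shared by both forms. In RPL22L1 this coverage ratio was 0.867 ± 0.095 (SD, n = 3) in hypoxia siControl and 0.634 ± 0.036 in normoxia siControl. In SRSF2 it was 0.485 ± 0.050 and 0.351 ± 0.007, and in MORF4L2 with siARNT in normoxia 0.739 ± 0.021 against 1.126 ± 0.051 with siControl. The ratio does not give the share of use, since MORF4L2 had 1.126 although its upstream site was the minor one. With siARNT in normoxia, 37 of the 38 called events with reads on both junctions in every group had coverage and junctions changed in the same direction. In hypoxia it was 18 of 20, and over all members tested 62.7% and 61.6%. Reads across the upstream junction also reach into the stretch, and the events were called in these same libraries. The agreement in direction is therefore no separate support for the calls. Direction alone was counted, also where the ratios hardly differed. The 72-nt pair of RPS7 had 0.632 ± 0.043 with siARNT and 0.632 ± 0.013 with siControl in normoxia. ANKHD1-EIF4EBP3 had 0.149 ± 0.021 and 0.151 ± 0.015 there. TOPBP1, a DNA damage checkpoint protein named after its values were seen, was an exception: its upstream site rose by 10.2 points with siARNT in hypoxia while its coverage ratio was 0.813 ± 0.069 against 0.907 ± 0.029. Its junction call (edgeR adjusted p = 0.011) was lost without hypoxia siControl A or C or hypoxia siARNT A or B (highest edgeR adjusted p = 0.0971). SKP2 was another, with 0.777 ± 0.065 in hypoxia siARNT and 0.783 ± 0.047 in normoxia siARNT. PLXND1 also had the opposite direction.

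Among called events with a junction at 0 in a whole group, coverage and junctions had the same direction in 1 of 3 for hypoxia in siControl, 0 of 2 for hypoxia in siARNT, 1 of 2 for siARNT in normoxia and 3 of 5 for siARNT in hypoxia. In MTMR10, named after its values were seen, the ratio was 1.204 ± 0.239 (SD, n = 3) with siARNT and 1.548 ± 0.156 with siControl in normoxia, the direction of its junctions. For RPS7 the junction reads put upstream use at 100% in 9 libraries and at 12.8% to 14.2% in hypoxia siControl. Its coverage ratio, however, was 9.82 ± 0.70 (SD, n = 3) in normoxia and 10.4 ± 0.66 in hypoxia with siControl, and 11.0 ± 0.26 and 11.0 ± 0.71 with siARNT, with overlapping libraries. For SLC20A1 the ratio was between 1.36 and 1.58 in every library and for SEC61G between 1.36 and 1.59. The junction calls of RPS7, SLC20A1 and SEC61G held without any single library and by limma and DESeq2, but with the events set apart kept in the fit only SEC61G was called. The coverage ratios of these 3 events did not set apart the groups with the junction at 0. For SLC20A1 and SEC61G, whose use of the upstream site differed by only a few points, a ratio with this spread could not have shown such a difference. Without the events that had a junction at 0 in a whole group, 2 events were called for hypoxia in siControl and 3 for hypoxia in siARNT.

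**Figure D5:**
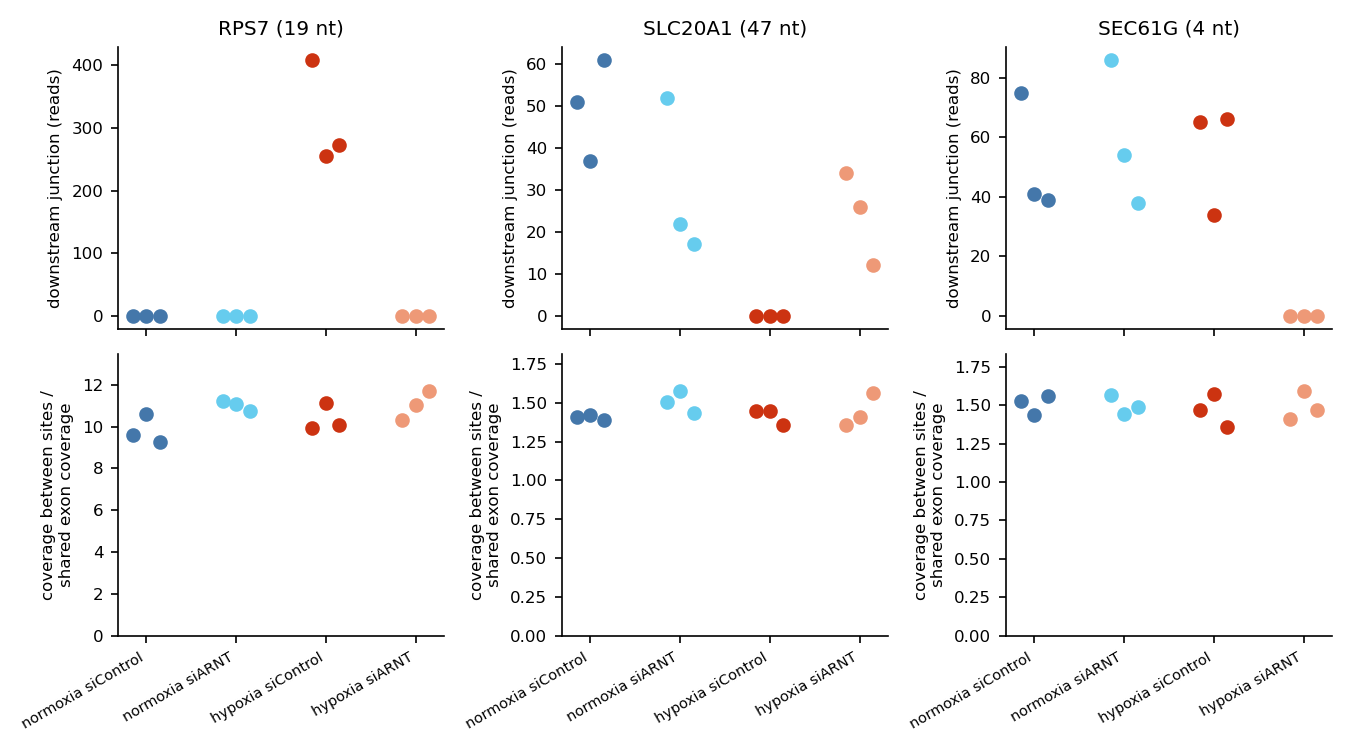
Reads of the downstream junction (top) and coverage of the stretch between the sites divided by that of the shared exon part (bottom), per library, in the 4 groups, for RPS7, SLC20A1 and SEC61G. The lower axes start at 0. The junctions are at 0 in whole groups, and the coverage ratios of the 4 groups overlap or lie close together.

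The called events lay farther apart than the members at large. Their median distance was 222 nt over the 59 events called in any comparison, in 54 genes, and 30 of them (50.8%) were over 200 nt apart, against 50 nt and 19.1% over all 2730 members. They also had more reads, with a median of 336.2 against 153.9 per library, and both sites were above 20% in 37.3% against 24.1%. The part of read depth in the difference in distance was not tested. Of the 41 called events with both introns in GENCODE 29, the intron to the upstream site was annotated only in transcripts that are not protein-coding in 12 (29.3%), against 12.3% of the 1907 members so matched. For the intron to the downstream site the shares were the other way, 5 (12.2%) against 29.6%. The upstream site also took the majority of reads less often in the called events, in 54.2% against 73.0% of all members. Called events were thus not shown to be richer in such transcripts when both sites are counted.

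Of 35 hosts of events called with siARNT in normoxia, 12 were also called for expression, and of 23 with siARNT in hypoxia, 10. Over all 1889 host genes tested, 25.5% and 37.1% were called for expression in these comparisons. For hypoxia in siControl it was 1 of 5 hosts, SRSF2, whose level fell by 0.27 ± 0.08 on the log2 scale (edgeR adjusted p = 0.0239), beside 33.5% of all host genes. For hypoxia in siARNT it was 1 of 6, RSRP1, whose level rose by 0.51 ± 0.08 (edgeR adjusted p = 0.00729), beside 4.6% of all host genes and 4.09% of all genes tested. For siARNT in normoxia 20.2% of all genes tested were called.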

How the data were processed

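Poly(A) RNA of 12 libraries was sequenced with a stranded kit, per the labels. The authors deposited junction read counts per alternative 3′ event, each site's share as a fraction (PSI), and coverage signal of the exon parts, with gene read counts in another table. GRCh38.p10, STAR 2.4.2a and Trimmomatic are listed in the submitters' processing notes; their roles and the event caller are not given in the sources used here. Use of the upstream site was recomputed from the counts.

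Events with a mean of at least 20 reads were tested with edgeR 4.0.16 (quasi-likelihood; R 4.3.3), with a coefficient for each library and for each group's junction ratio over all 12 libraries, adjusting over 3535 events. Genes were tested likewise on gene counts. limma 3.58.1 and DESeq2 1.42.0 were alternatives, as were other read minimums, a block for the replicate letter and leaving out each library. The written plan can be read as keeping the events with a junction at 0 in part of a group in the fit and adjustment. That fit was run first, and did poorly on simulated data, after which these events were left out. In a simulation of hypoxia in siControl, the fit without them called 2.5%, 16.4% and 75.4% of events with log2 changes of 0.5, 1 and 2. Most changes of 1 or less on the log2 scale would thus be missed, and the counts of calls are not complete. The members and lists were chosen with earlier results of these data known. Named events are, per comparison, the called ones with the largest difference in use and no overlap (10 for hypoxia in siControl and for siARNT in hypoxia, 6 elsewhere), the 3 with most reads in those same 2 comparisons, called events of the lists, and the 5 events set apart with most reads. Lines without a gene, 22.71 to 25.2% of reads, were left out of gene library sizes. Event coordinates name no build, and 9 of 1907 matched events lay at the GENCODE 29 position, so positions are those of GENCODE 29. Of the called events, 1 event is counted but not reported here. Wilson intervals cover counting error only. Junction counts of all replicate pairs differed beyond sampling noise, with a chi-square of 1.22 to 2.22 for each degree of freedom.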

Additional observations from a re-analysis of the deposited data

Results flagged for a closer look

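For SLC20A1 and SEC61G the change with hypoxia under siARNT differed from that under siControl, by the interaction term of the edgeR model. The difference of these changes in use of the upstream site was -3.90 percentage points for SLC20A1 (edgeR adjusted p = 1.08e-08) and for SEC61G 7.62 points (edgeR adjusted p = 1.54e-08). Both rest on a downstream junction at 0 reads in the 3 libraries of 1 group, hypoxia siControl for SLC20A1 and hypoxia siARNT for SEC61G. With the events set apart kept in the fit, the adjusted p was 0.219 for SLC20A1 and 0.106 for SEC61G.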

How the results depend on the processing

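Counts of called events are given first for hypoxia (with siControl, then siARNT), next for siARNT (at normoxia, then hypoxia) and last for the interaction: 5, 6, 40, 25 and 3 by edgeR. With the events set apart kept in the fit they were 0, 1, 0, 1 and 0, so all 5 counts depend on that choice, which was settled after both had been seen. limma gave 3, 6, 2, 13 and 4, of which 3, 3, 1, 8 and 2 were also edgeR calls. DESeq2 gave 2, 2, 3, 14 and 3, of which 2, 2, 3, 13 and 2 were. Without events with a junction at 0 in a whole group, an alternative chosen after seeing the data, the counts were 2, 3, 33, 19 and 1. Asking for a difference of at least 5 points as well gave 2, 6, 28, 20 and 2. Leaving out 1 library at a time gave 4 to 6, 3 to 7, 3 to 44, 12 to 35 and 2 to 4. Deviations of same-letter samples correlated at -0.037 to 0.087 with the same siRNA and at -0.056 to 0.091 with the other siRNA. Samples of other letters correlated at -0.142 to 0.116. These deviations hold counting noise, so the correlations cannot show whether the shared wells pair the samples. A fit with the replicate block gave 6, 8, 60, 36 and 3 calls. Read minimums of 10, 50 or none kept the counts within 1.5 times. For host genes, leaving out 1 library gave 14 to 93 calls for hypoxia in siARNT (86 with all), 222 to 588 for siARNT in normoxia (481) and 33 to 185 for the interaction (116). No result turned its direction under the settings run. The cause of these shifts was not tested. Low read numbers limit single libraries: the widest 95% Wilson interval was 48.7 points for PLXND1 and 1.1 for the 688-nt pair of HNRNPA2B1.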
